A study of Mus musculus with 14 samples.

Results

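The transcripts of blood clotting and of its dissolution were followed in mouse liver, as 36 genes listed by symbol that code for coagulation factors, the chains of fibrinogen, natural anticoagulants and the enzymes, inhibitors and receptors of fibrinolysis. The genes were taken from the deposited table of read counts by symbol, and all 36 were found once each among its 25212 rows. They were separated by their usual source into 24 that hepatocytes make and 12 that are made mainly by other cells, chiefly endothelium, macrophages and stromal cells. Every one of the 36 passed the filter on low counts and entered the test, which covered 14252 genes.

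RNA-seq libraries, 1 per liver, came from male C57BL/6 mice in which obesity had been induced with a high-fat diet (DIO), begun at 6 weeks of age, given for 12 weeks before surgery and kept on afterwards. In 5 of the DIO mice no surgery was done, in 4 the gallbladder was joined to the ileum and the common bile duct tied (GB-IL), and 5 had a Roux-en-Y gastric bypass (RYGB). All carried the same strain background and diet and were sampled 8 weeks after surgery, or after no surgery, by the labels. The DIO mice had no sham operation, so an effect of being operated on cannot be told apart from an effect of GB-IL or RYGB. The labels name a stranded mRNA kit and a stranded total RNA kit without saying which liver had which. They describe the samples of a group as separate livers, and nothing in them gives litters or days of surgery, so the p-values measure the spread between these livers.

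Clotting is a cascade of proteases that circulate as inactive precursors, most of them secreted by hepatocytes. Tissue factor with factor VII, or the contact system of factor XII, prekallikrein and kininogen, starts a chain that ends when thrombin cuts fibrinogen to fibrin, which factor XIII then cross-links. Antithrombin, the protein C and protein S pathway and tissue factor pathway inhibitor restrain it, and plasmin, set free from plasminogen by the activators tPA and uPA, dissolves the clot. Several of the liver's products, fibrinogen first among them, are known as acute-phase proteins, whose levels change in inflammation.

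Each liver gave between 18223135 and 28656631 counted reads, so that the highly expressed members rest on many reads per liver and the lowest on a handful. Levels are given as CPM, the reads of a gene per 1000000 reads of the liver with totals scaled by the TMM method, and differences as log2 fold changes with their standard errors (SE) from a single quasi-likelihood fit in edgeR that held all 14 livers, with p-values adjusted over all genes tested and called at a false discovery rate (FDR) of 0.05. Livers of GB-IL did not form a tight group. Principal component 1 (48.5% of the variance) placed the DIO livers between -45.7 and -21.9, whereas the scores of GB-IL livers 1 to 4 were 134, 106, 20.1 and -35.3, and RYGB liver 5, at 17.4, was the highest of the RYGB livers. The hepatocyte markers, with albumin (Alb) and transthyretin (Ttr) among them, were all detected in every group. They summed to 128629 to 165751 CPM in DIO, 132580 to 205812 in GB-IL and 136497 to 173381 in RYGB. The sums hide opposite moves. In GB-IL livers 1, 2 and 3, Alb, Ttr and Apob were below every DIO liver, and Apoa1, Trf, Ahsg, Hpx and Pck1 were above. Ttr was at 1607, 2186 and 3742 CPM there (5696 to 9294 in DIO). Hpx was at 23041, 38218 and 26099 CPM (2596 to 5185 in DIO).

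In livers of GB-IL mice, 7 of the 36 genes were higher than in DIO at the FDR and 0 were lower, where 3.15% of all genes tested were called higher and 0.112% lower. The 7 were both kininogen genes (Kng1 and Kng2), the fibrinogen beta chain (Fgb), protein S (Pros1), the factor XIII A subunit (F13a1), tissue plasminogen activator (Plat) and the urokinase receptor (Plaur). Hepatocyte-made genes accounted for 4 of them, out of 24, and genes of other cells for 3, out of 12. After RYGB, 0 of the 36 were called, and 0 of all 14252 genes (0%). The median log2 fold change of the hepatocyte-made genes was 0.23 in GB-IL and 0.14 in RYGB, that of the genes made by other cells was 0.63 and 0.95, and that of all genes tested was 0.04 and 0.01. Without GB-IL liver 3 the hepatocyte-made genes had a median of -0.05 in GB-IL. Both comparisons use the same 5 DIO livers. At an unadjusted p below 0.05, 13 of the 36 were higher and 0 lower in GB-IL (16.7% and 6.43% of all genes tested), and 6 were higher and 0 lower in RYGB (5.35% and 3.36%).

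The GB-IL calls depended on which livers were in the fit. The fit of GB-IL and DIO livers alone called 0 of the 36 (0% of all genes), and their log2 fold changes moved little, to between 1.27 for Pros1 and 3.40 for Plaur among the 7. Leaving out GB-IL liver 1, GB-IL liver 2 or any 1 of the 5 DIO livers also left 0 calls. In those fits 0 of all genes tested were called. Leaving out RYGB liver 1, 3 or 4 left 3 calls. Of all genes, 334 of 14197, 288 of 14197 and 307 of 14193 were called higher there. Leaving out GB-IL liver 4 raised the calls to 12, where 15.4% of all genes were called higher and 9.27% lower. DESeq2 called 9 of the 36 higher (7.77% of all genes) and voom with sample quality weights 7 (3.58%). The 7 of voom left out Fgb and Plaur and included Procr and Serpina10. Bulk liver RNA does not separate fewer cells of a type from less RNA per cell, and this holds for all values below.

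**Figure D1:**
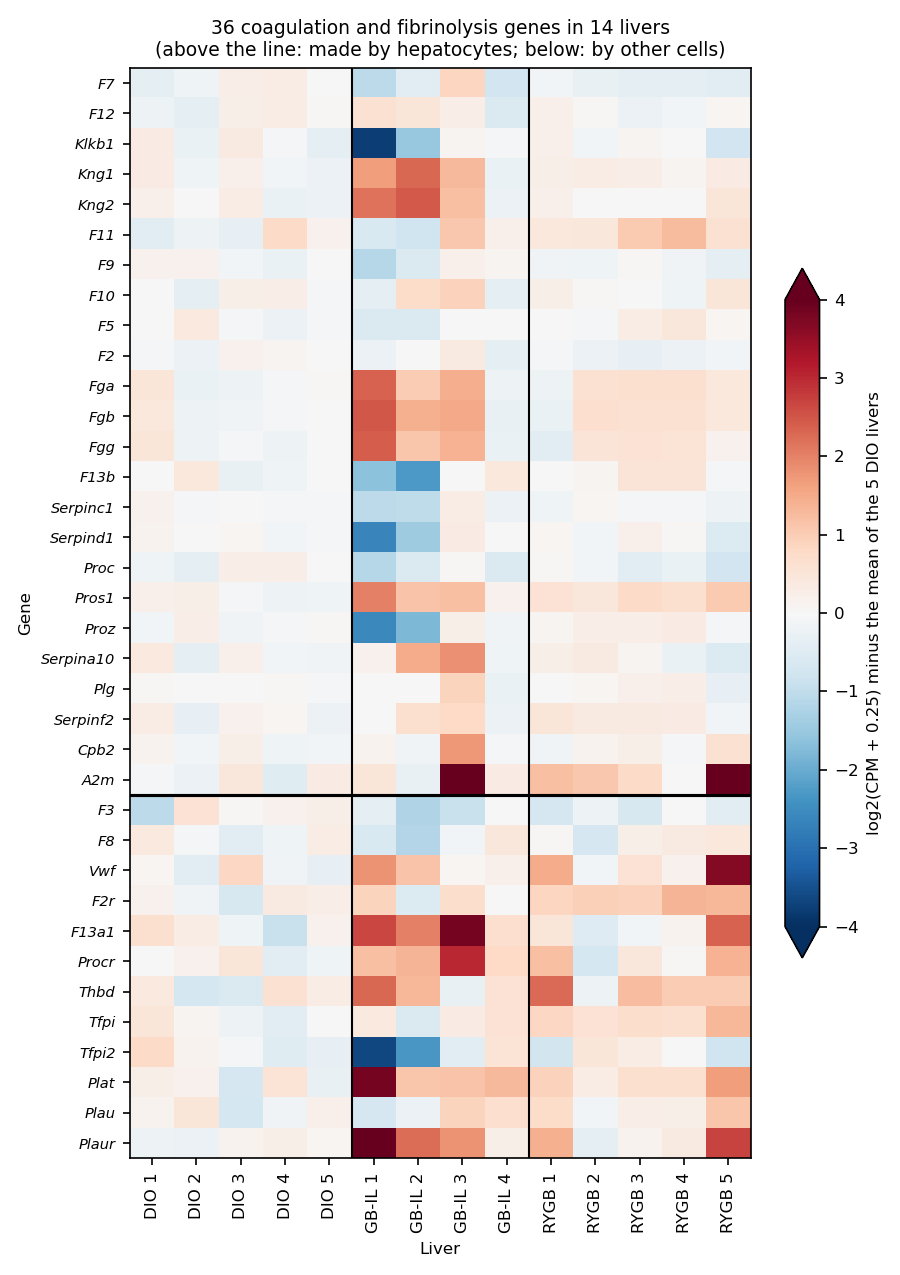
Colour gives log2(CPM + 0.25) of each gene (rows) in each of the 14 livers (columns) minus the mean of the 5 DIO livers. The scale stops at -4 and 4, and the line separates the 24 genes made by hepatocytes from the 12 made by other cells. Fgb, Kng1 and Kng2 are above the DIO mean in GB-IL livers 1, 2 and 3 and not in GB-IL liver 4, and A2m stands out in GB-IL liver 3 and RYGB liver 5.

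Levels of different genes can be compared only per length, here as CPM per kilobase of annotated exon. The length joins the exons of all annotated transcripts of a gene, so a gene whose liver transcript is shorter ranks too low. Antithrombin (Serpinc1), at 1839 CPM in DIO, is divided by 8.55 kilobases and comes to 215 CPM per kilobase, while F2, at 1876 CPM, is divided by 4.59. The order given here rests on that choice of length. In DIO livers the order was led by the fibrinogen chains, with Fgg at 1498 ± 326, Fga at 1451 ± 333 and Fgb at 980.3 ± 187 CPM per kilobase (SD, n = 5), followed by plasminogen (Plg) at 632 ± 18.6, Kng1 at 575 ± 98.2 and prothrombin (F2) at 408 ± 44.0. Fgg and Fga did not differ beyond their spread, and neither did Plg and Kng1. At the other end, Plat was at 0.0403 ± 0.0251, alpha-2-macroglobulin (A2m) at 0.0504 ± 0.0231 and F13a1 at 0.0524 ± 0.0317, which overlap each other. In the 5 DIO livers together Plat had 24 reads, F13a1 35, A2m 35 and Plaur 39, so fold changes of these genes start from few reads.

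The initiators gave no call. Tissue factor (F3), the membrane receptor that starts clotting at a wound, was at 1.52, 5.17, 3.56, 3.90 and 4.09 CPM in DIO, at 2.57, 1.36, 1.74 and 3.39 in GB-IL and at 2.02, 2.96, 2.08, 3.35 and 2.49 in RYGB. All 3 groups overlapped, with log2 fold changes of -0.68 (SE 0.344, adjusted p = 0.247) in GB-IL and -0.50 (SE 0.320, adjusted p = 0.689) in RYGB. Factor VII (F7), its partner protease from hepatocytes, ran from 85.8 to 138 CPM in DIO and from 53.4 to 199 in GB-IL, with GB-IL livers 1, 2 and 4 below every DIO liver and GB-IL liver 3 above.

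Of the contact and intrinsic factors, the kininogens stood out. Kininogen is the cofactor that carries prekallikrein and factor XI and the precursor of bradykinin, and the mouse has a pair of kininogen genes side by side on chromosome 16, Kng1 on the plus strand (chr16:23057865-23082078) and Kng2 on the minus strand (chr16:22985854-23029482, GENCODE M21 on GRCm38). Kng1 was at 2298, 1654, 2107, 1724 and 1554 CPM in DIO, at 5829, 9090.2, 4574 and 1542 in GB-IL and at 2189.7, 2266, 2232, 2003 and 2334 in RYGB. GB-IL livers 1, 2 and 3 lay above every other liver, and GB-IL liver 4 lay just below the lowest DIO liver. The log2 fold change of Kng1 in GB-IL was 1.49 (SE 0.357, adjusted p = 0.0365), and in RYGB 0.24 (SE 0.336, adjusted p = 0.876). Kng2 gave 303, 263, 320.5, 218 and 221 CPM in DIO, 1173, 1421, 605 and 223 in GB-IL and 299, 257, 267, 263 and 363 in RYGB. GB-IL livers 1, 2 and 3 were again above every other liver, and GB-IL liver 4 was within the DIO range. Its log2 fold change was 1.69 (SE 0.380, adjusted p = 0.0329) in GB-IL. Reads of the pair may be split between them, since 17.2% of the 50-base words in Kng1's exons also occur in Kng2 and 19.4% of Kng2's in Kng1. The ratio of Kng1 to Kng2 per kilobase stayed between 4.18 and 7.42 over the 14 livers, while their summed level ranged 5.96-fold.

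The remaining contact and intrinsic factors were not called in either comparison. Prekallikrein (Klkb1) was at 22.8 to 38.4 CPM in DIO and at 1.94, 10.3, 32.2 and 28.5 in GB-IL, so that GB-IL liver 1 had a level 15.7-fold below the DIO mean and GB-IL liver 4 was within the DIO range. Its reads are uncertain, because 91.8% of its 50-base words also occur in other gene entries of the annotation. Factor XI (F11), which lies next to Klkb1 on chromosome 8, was at 37.7 to 86.2 CPM in DIO, 33.0, 28.7, 107 and 57.8 in GB-IL and 67.9, 68.5, 103, 122 and 76.9 in RYGB, with a log2 fold change of 0.73 in RYGB (SE 0.345, adjusted p = 0.573). Factor XII (F12) and factor IX (F9) differed from DIO by log2 values of 0.24 and -0.26 in GB-IL and of -0.02 and -0.16 in RYGB. Factor VIII (F8), the cofactor made by endothelium, was at 8.80 to 15.9 CPM in DIO and at 7.83, 5.31, 11.2 and 16.8 in GB-IL.

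Von Willebrand factor (Vwf), the endothelial protein that carries factor VIII and tethers platelets, was at 8.85, 6.20, 15.1, 7.58 and 6.63 CPM in DIO, 29.9, 19.0, 8.86 and 9.74 in GB-IL, and 24.2, 7.69, 12.6, 9.43 and 110.3 in RYGB. RYGB liver 5 stood far above all others. The log2 fold change in RYGB was 1.89 (SE 0.661, adjusted p = 0.468) with that liver and 0.61 without it. The 10 endothelial markers summed to 226 to 320.2 CPM in DIO and 222 to 513 in RYGB, the highest being RYGB liver 5, and their part in the Vwf level was not tested.

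None of the common pathway genes was called. Prothrombin (F2), the precursor of thrombin, was at 1578 to 2098 CPM in DIO and 1428 to 2392 in GB-IL, a log2 difference of -0.05 (SE 0.200). Factor V (F5), the cofactor of activated factor X, gave 528, 690.4, 498, 452 and 514 CPM in DIO, 352, 356, 523 and 542 in GB-IL and 538, 498, 647, 725 and 559 in RYGB. Only GB-IL livers 1 and 2 left the DIO range downward, and the log2 fold change of F5 in GB-IL was -0.28 (SE 0.210, adjusted p = 0.415). Factor X (F10) was above every DIO liver in GB-IL livers 2 and 3, at 725 and 825 CPM against a DIO maximum of 524, and within the DIO range in livers 1 and 4. F7, F10 and protein Z (Proz) lie in a row on chromosome 8, between positions 13026034 and 13076026, and in GB-IL liver 2 F10 was above and the other two below every DIO liver.

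The thrombin receptor PAR1 (F2r), carried by endothelial and stromal cells, had the smallest p of all members in RYGB. Its level was 20.7, 16.8, 11.8, 24.05 and 22.1 CPM in DIO, 33.8, 36.2, 35.5, 48.3 and 46.6 in RYGB, and 34.9, 12.5, 30.5 and 18.9 in GB-IL. Every RYGB liver lay above every DIO liver, which held for 3 of the 36, the others being Pros1 and Tfpi, and 0 lay below in that way, where 1.87% and 1.66% of all genes tested did. The log2 fold change was 1.07 (SE 0.262, adjusted p = 0.331 by edgeR), which does not pass the FDR. DESeq2 gave F2r an adjusted p of 0.0331, voom weighted by sample quality (limma) 0.00811 and the edgeR fit of RYGB and DIO alone 0.0446, all past the threshold. These alternatives called 0.449%, 6.08% and 0.125% of all genes tested higher in RYGB, and 1, 3 and 1 of the 36. F2r stayed uncalled with RLE or upper quartile scaling, library sizes from hepatocyte markers and no filter (edgeR adjusted p of 0.318 to 0.453). Dropping 1 liver at a time gave edgeR adjusted p-values of 0.187 to 0.828, and without RYGB liver 5 the log2 fold change was 1.02. For GB-IL the difference was 0.34 (SE 0.275, adjusted p = 0.438).

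In GB-IL against DIO, the chains of fibrinogen had the largest differences in mean CPM among the 36. They are coded by Fgg, Fga and Fgb, which lie within chr3:83007724-83049863, and are assembled in equal numbers into the secreted protein. Fgb was at 4967, 3184, 3354, 3512 and 3658 CPM in DIO, at 20858, 9930.4, 10474 and 2996 in GB-IL and at 3040.3, 5915, 5625, 5589.8 and 4915 in RYGB. GB-IL livers 1, 2 and 3 were above every other liver of the study and GB-IL liver 4 was below every DIO liver, so the groups overlapped. Fgb differed from DIO in GB-IL by a log2 fold change of 1.57 (SE 0.406, adjusted p = 0.0489). Fga was at 6060.0, 3564, 3746, 4019 and 4455 CPM in DIO, at 21956, 8748, 11793 and 3756 in GB-IL and at 3702, 6488, 6712, 6693 and 5691 in RYGB. Its log2 fold change of 1.40 (SE 0.392) had an adjusted p of 0.0622. Fgg was at 4309, 2659, 2936, 2668 and 3108 CPM in DIO, at 16547, 6613, 8109.9 and 2588 in GB-IL and at 2255, 4448, 4649, 4479 and 3506 in RYGB, with a log2 fold change of 1.43 (SE 0.406, adjusted p = 0.0656). The 3 chains therefore fell on either side of the threshold with log2 fold changes whose SEs overlap. Without GB-IL liver 4 all 3 passed, with adjusted p-values of 0.00279 for Fga, 0.00112 for Fgb and 0.00298 for Fgg, and without GB-IL liver 1 the log2 fold changes were 0.88, 1.05 and 0.87 and none passed. Dropping 1 liver at a time, the adjusted p of Fgb ran from 0.00112 to 0.192. With all livers it was 0.0772 by edgeR with library sizes from hepatocyte markers, 0.0636 by edgeR without a filter and 0.0532 by voom.

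In RYGB the chains were above every DIO liver in livers 2, 3 and 4, while RYGB liver 1 had Fgb and Fgg below every DIO liver. The log2 fold changes were 0.42 for Fga (SE 0.370, adjusted p = 0.776), 0.43 for Fgb (SE 0.382, adjusted p = 0.784) and 0.30 for Fgg (SE 0.383, adjusted p = 0.859). The chains moved together in each liver. Over the 14 livers their summed level ranged 6.60-fold, from 8997 to 59362 CPM, whereas the ratio of Fga to Fgg per kilobase stayed between 0.887 and 1.14, that of Fgg to Fgb between 1.21 and 1.59, and that of Fga to Fgb between 1.12 and 1.59. The lowest Fga to Fgb ratio was that of GB-IL liver 2. Exons of Fgg overlap an opposite-strand gene over 5.50% of their length, and the strand setting of the counting is not given in the sources used here.

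**Figure D2:**
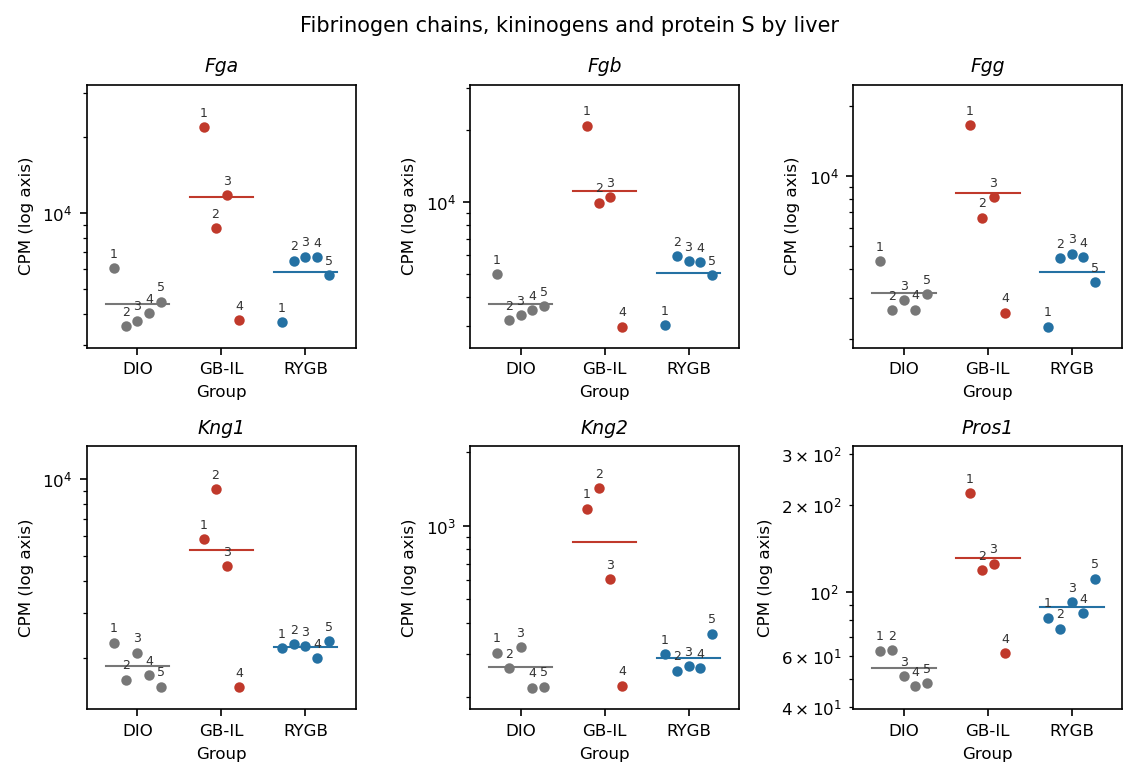
CPM (log axis) of Fga, Fgb, Fgg, Kng1, Kng2 and Pros1 in each liver, by group, with the liver's number above each point and the group mean as a line. GB-IL livers 1, 2 and 3 lie above all DIO livers in each panel and GB-IL liver 4 lies within or just below the DIO range, while all 5 RYGB livers lie above DIO for Pros1.

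The promoters of the chains and of Pros1 are shown, and these genes were above every DIO liver in the same 3 GB-IL livers. That also held for Kng1, Kng2, F13a1, Procr, Plat and Plaur, whose promoters are not shown. The set shown is a choice among these genes. Sequences are the bases before the start in RefSeq on GRCm38.p6, 5′ to 3′ on the gene's own strand, stopping before the first annotated transcribed base. Capitals mark matches on either strand to letters that textbooks give for factors of the acute-phase response: TTCNNNGAA for STAT proteins, CTGGGA for the type II element of IL-6 response and TTGCNNAA for C/EBP proteins.
Fga, chr3:83025903-83026075, plus strand: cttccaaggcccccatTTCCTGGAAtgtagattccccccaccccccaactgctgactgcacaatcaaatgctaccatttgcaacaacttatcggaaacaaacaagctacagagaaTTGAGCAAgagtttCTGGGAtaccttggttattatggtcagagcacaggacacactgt
Fgb, chr3:83049864-83050113, minus strand: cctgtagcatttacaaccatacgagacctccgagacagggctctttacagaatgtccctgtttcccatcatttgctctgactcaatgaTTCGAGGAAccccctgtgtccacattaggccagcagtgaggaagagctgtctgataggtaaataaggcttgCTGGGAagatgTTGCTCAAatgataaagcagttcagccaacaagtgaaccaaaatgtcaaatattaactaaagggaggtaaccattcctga
Fgg, chr3:83007474-83007723, plus strand: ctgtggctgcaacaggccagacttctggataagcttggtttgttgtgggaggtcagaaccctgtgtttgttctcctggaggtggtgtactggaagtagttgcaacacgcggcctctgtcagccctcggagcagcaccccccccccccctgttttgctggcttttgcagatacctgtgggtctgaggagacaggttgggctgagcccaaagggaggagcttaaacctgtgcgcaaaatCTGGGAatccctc
Pros1, chr16:62854057-62854306, plus strand: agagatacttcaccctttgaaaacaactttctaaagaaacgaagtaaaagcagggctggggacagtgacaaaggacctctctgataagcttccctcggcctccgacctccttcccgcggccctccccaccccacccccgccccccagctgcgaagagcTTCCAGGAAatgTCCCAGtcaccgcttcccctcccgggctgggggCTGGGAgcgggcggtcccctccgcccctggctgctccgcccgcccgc

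Within the 250 bases before the start, Fga and Fgb each held 1 match to all 3 letter patterns, Fgg held 1 match to CTGGGA, and Pros1 held 1 to TTCNNNGAA and 2 to CTGGGA. The Kng2 window, whose letters are not shown, held 1 match to TTGCNNAA. Among other genes raised in GB-IL livers 1, 2 and 3, Procr matched CTGGGA and TTGCNNAA, F13a1 CTGGGA and Plaur TTGCNNAA. The same letters occurred in genes that were below every DIO liver in GB-IL livers 1 and 2. Of these, F9 matched all 3 patterns, Klkb1 CTGGGA and TTGCNNAA, Serpind1 and Tfpi2 CTGGGA, and F11 TTGCNNAA. The rest of those lower genes had no match or no window. Of all 32851 promoter windows of this length, 7.02% held TTCNNNGAA, 26.998% held CTGGGA and 9.56% held TTGCNNAA. Windows were found for 27 of the 36 genes, and among these 31 windows the letters were in 4, 13 and 8, and no matches overlapped in the windows shown. The matches describe letters and do not show that a factor binds there.

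Factor XIII, which cross-links fibrin, is made of an A subunit from macrophages and platelets and a B subunit from hepatocytes. F13a1 was at 0.628, 0.443, 0.254, 0.0566 and 0.385 CPM in DIO, at 3.41, 2.03, 7.89 and 0.664 in GB-IL and at 0.547, 0.148, 0.282, 0.372 and 2.70 in RYGB. Every GB-IL liver lay above every DIO liver, GB-IL liver 4 by the least, and the log2 fold change was 3.28 (SE 0.846, adjusted p = 0.0480), or 2.49 without GB-IL liver 3. In RYGB it was 1.20 (SE 0.820, adjusted p = 0.707), which became -0.083 without RYGB liver 5. F13b, in contrast, was at 109 to 178 CPM in DIO and at 42.4, 26.996, 134 and 179 in GB-IL, and was not called (log2 fold change -0.49, SE 0.419). Macrophage markers were higher in the mean of GB-IL, as F13a1 was, but did not follow it in every liver. The 11 of them summed to 505 to 769 CPM in DIO and to 914, 1495, 1918 and 749 in GB-IL livers 1 to 4, with all 11 means higher and 4 called. In RYGB livers 1 to 5 they summed to 989, 467, 586, 483 and 711 CPM, highest in liver 1, whereas F13a1 was highest in liver 5. In GB-IL liver 1, Emr1 (7.20 CPM, 15.2 to 35.9 in DIO) and Clec4f (42.2 CPM, 129 to 202 in DIO) were below every DIO liver. Cd68, Lyz2, C1qa, C1qb and C1qc were above every DIO liver there. Platelet and megakaryocyte markers summed to 1.49 to 3.35 CPM in DIO, to 12.6, 12.1, 6.998 and 1.03 in GB-IL livers 1 to 4 and to 11.3 in RYGB liver 5, with all 8 means higher in GB-IL and 0 of the 3 tested called. The part of both cell types in the F13a1 level was not tested.

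Of the 10 anticoagulant genes 1 was called, in GB-IL. Protein S (Pros1), the cofactor of activated protein C, had the smallest p of all members in GB-IL. Its level was 62.5, 62.9, 51.1, 47.1 and 48.3 CPM in DIO, 220.1, 119, 125 and 61.3 in GB-IL and 81.4, 74.6, 92.1, 84.3 and 111.0 in RYGB. GB-IL livers 1, 2 and 3 were above every DIO liver and GB-IL liver 4 was within the DIO range, for a log2 fold change of 1.27 (SE 0.272, adjusted p = 0.0310). All 5 RYGB livers were above every DIO liver, for a log2 fold change of 0.71 (SE 0.258, adjusted p = 0.492) by edgeR and an adjusted p of 0.00696 by voom with sample quality weights. Pros1 is expressed in hepatocytes and also in endothelium and other cells, which these data do not separate.

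Antithrombin (Serpinc1), the main inhibitor of thrombin and factor Xa, was at 1732 to 2065 CPM in DIO and at 894, 902, 2277 and 1557 in GB-IL, with a log2 fold change of -0.39 (SE 0.263, adjusted p = 0.367). A gene on the opposite strand overlaps 34.4% of its exon length. Heparin cofactor II (Serpind1) was at 515 to 614 CPM in DIO and at 89.6, 209, 691 and 565 in GB-IL, with livers 1 and 2 below every DIO liver, liver 3 above and liver 4 within the range. Proz, the vitamin K-dependent protein that helps to inhibit factor Xa, was at 206 to 273 CPM in DIO and at 38.1, 65.8, 265 and 208 in GB-IL. These are levels 6.21-fold and 2.67-fold below the DIO mean for Serpind1 in GB-IL livers 1 and 2, and 6.02-fold and 3.48-fold for Proz, and neither gene passed the test with all 4 livers. Its partner inhibitor, the protein Z-dependent protease inhibitor (Serpina10), did not go with it and was at 169 to 282 CPM in DIO and 242, 608, 765 and 189 in GB-IL (log2 fold change 1.04, SE 0.358, adjusted p = 0.112). Protein C (Proc), the protease that destroys factors Va and VIIIa, was at 375 to 583 CPM in DIO and at 219, 324, 501 and 327 in GB-IL (log2 fold change -0.52, SE 0.2501, adjusted p = 0.225).

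Of the anticoagulant genes listed by usual source under endothelium and other cells, Procr, Thbd, Tfpi and Tfpi2, none passed the FDR. The endothelial protein C receptor (Procr) was at 0.785, 0.935, 1.22, 0.509 and 0.673 CPM in DIO, 2.15, 2.43, 8.19 and 1.59 in GB-IL and 2.19, 0.395, 1.20, 0.827 and 2.53 in RYGB. Every GB-IL liver lay above every DIO liver, and the log2 fold change of 2.11 (SE 0.554) had an adjusted p of 0.0510. Without GB-IL liver 3 it was 1.31. RLE or upper quartile scaling, DESeq2 and voom each took Procr past the threshold. Library sizes from hepatocyte markers (edgeR adjusted p = 0.0665) and no filter (edgeR adjusted p = 0.0525) did not. Thrombomodulin (Thbd), which turns thrombin into an activator of protein C, was at 2.66 to 6.90 CPM in DIO, at 22.8, 11.6, 3.60 and 6.86 in GB-IL and at 22.6, 3.85, 10.8, 9.27 and 9.28 in RYGB, with log2 fold changes of 1.23 (adjusted p = 0.179) and 1.22 (adjusted p = 0.530).

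Tissue factor pathway inhibitor (Tfpi), which blocks the complex of tissue factor and factor VIIa, was at 8.01, 6.15, 4.88, 4.07 and 5.72 CPM in DIO, 10.2, 8.43, 9.33, 8.98 and 14.4 in RYGB and 7.51, 3.73, 7.08 and 8.48 in GB-IL. All RYGB livers were above all DIO livers, the closest pair being 8.43 and 8.01, with a log2 fold change of 0.83 (SE 0.247, adjusted p = 0.387 by edgeR) that passed the FDR only with voom (adjusted p = 0.0117). Tfpi2, its placental relative with a preference for plasmin, was below every DIO liver in GB-IL livers 1 and 2, at 3.41 and 8.81 CPM against 32.0 to 76.3 in DIO, with 33.5 and 66.7 in livers 3 and 4 (log2 fold change -0.75, SE 0.605, adjusted p = 0.439). The DIO mean of Tfpi2, 47.4 CPM, was above those of Procr (0.825), Thbd (4.78) and Tfpi (5.77). Which cells made Tfpi2 in these livers was not tested.

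**Figure D3:**
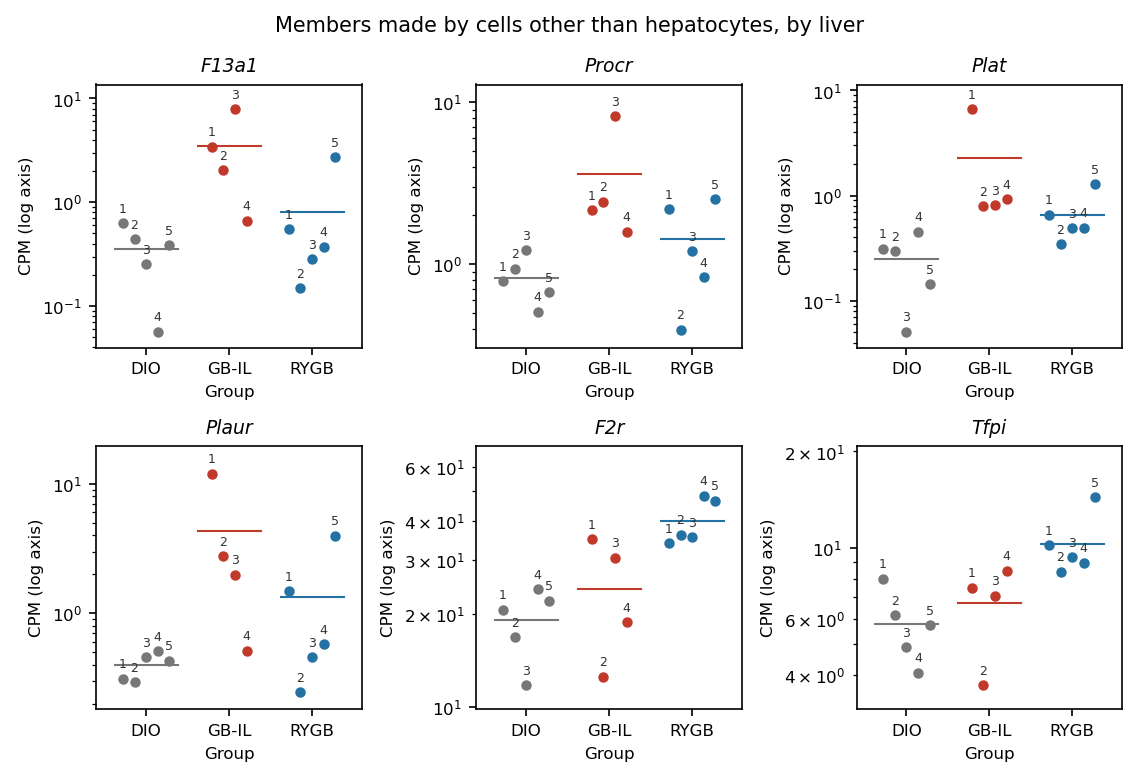
CPM (log axis) of F13a1, Procr, Plat, Plaur, F2r and Tfpi in each liver, by group, with the liver's number above each point and the group mean as a line. All 4 GB-IL livers lie above all DIO livers for F13a1, Procr, Plat and Plaur, in Plaur by a margin of 0.516 against 0.509 CPM, and all 5 RYGB livers lie above all DIO livers for F2r and Tfpi.

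In fibrinolysis, the activator tPA and the urokinase receptor rose in GB-IL, and their partner genes did not pass the test. Plat, which codes for tPA, was at 0.314, 0.295, 0.0509, 0.453 and 0.144 CPM in DIO, 6.62, 0.791, 0.806 and 0.922 in GB-IL and 0.656, 0.345, 0.493, 0.496 and 1.28 in RYGB. All 4 GB-IL livers were above the DIO livers, GB-IL liver 1 by far the most. The log2 fold change was 3.16 (SE 0.729, adjusted p = 0.0340), and 1.73 without GB-IL liver 1, when it was no longer called. DESeq2 gave Plat no adjusted p. Plaur, the receptor that holds urokinase on leukocytes and other cells, was at 0.314, 0.295, 0.458, 0.509 and 0.433 CPM in DIO, 11.9, 2.77, 1.99 and 0.516 in GB-IL and 1.48, 0.247, 0.458, 0.579 and 3.98 in RYGB. Its log2 fold change was 3.40 (SE 0.868, adjusted p = 0.0461), with GB-IL liver 4 next to the highest DIO liver, and 2.10 without GB-IL liver 1. Urokinase itself (Plau) was at 0.763 to 2.02 CPM in DIO and at 0.788, 1.13, 2.80 and 2.36 in GB-IL (log2 fold change 0.30, SE 0.402). The genes whose groups did not overlap numbered 4 of 36 in GB-IL, all higher (2.67% of all genes tested were higher in this way and 1.51% lower) and all made by other cells.

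Markers of several cell types moved in the same livers. Neutrophil markers summed to 5.43 to 10.6 CPM in DIO, to 122, 56.3, 386 and 6.46 in GB-IL livers 1 to 4 and to 117 in RYGB liver 5, with 5 of the 7 tested called higher in GB-IL. Stellate cell and fibroblast markers summed to 214 to 344 CPM in DIO and to 930, 315, 283 and 354 in GB-IL, the first of these being the liver with the highest Plat and Plaur, and 1 of the 10 was called. Of the 930 CPM in GB-IL liver 1, Dcn gave 517 and Des 243, while Reln (37.0 CPM, 34.0 to 59.0 in DIO) and Lrat (17.2 CPM, 6.35 to 21.1 in DIO) were within the DIO range. Bile duct markers summed to 30.6 to 66.2 CPM in DIO and to 322, 264, 219 and 58.3 in GB-IL, of which Spp1 alone gave 286, 216, 205 and 49.5, and 3 of the 6 tested were called higher. Endothelial markers overlapped between the groups, at 217 to 426 CPM in GB-IL, with 0 of 10 called. No marker gene was at 0 in every liver of a group, and the part of these cells in Plat, Plaur and Procr was not tested.

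Plasminogen (Plg), the precursor of plasmin, was steady in DIO at 2243 to 2412 CPM and reached 4308 in GB-IL liver 3 alone, the others being at 2376, 2313 and 1950.1. Alpha-2-antiplasmin (Serpinf2) was at 696 to 1066 CPM in DIO and at 866, 1365, 1502 and 747 in GB-IL. In RYGB it was above every DIO liver in livers 1 to 4, at 1213, 1128, 1109.9 and 1086, and at 802 in liver 5. The carboxypeptidase TAFI (Cpb2), which protects fibrin from plasmin, was at 230.3 to 306 CPM in DIO and at 283, 238, 866 and 253 in GB-IL, so that again liver 3 was alone. None of the 3 was called, with adjusted p-values of 0.566, 0.385 and 0.256 in GB-IL.

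A2m, a broad protease inhibitor, was at 0.314, 0.246, 0.560, 0.170 and 0.481 CPM in DIO, 0.578, 0.226, 22.4 and 0.480 in GB-IL and 1.09, 0.986, 0.739, 0.331 and 22.5 in RYGB. A single liver in each surgical group was near 22 CPM and all others were at or below 1.09. RYGB livers 1, 2 and 3 were also above every DIO liver. The fitted log2 fold changes were 4.04 (SE 1.48, adjusted p = 0.132) in GB-IL and 3.84 (SE 1.44, adjusted p = 0.507) in RYGB, and the RYGB value was 1.12 without RYGB liver 5.

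**Figure D4:**
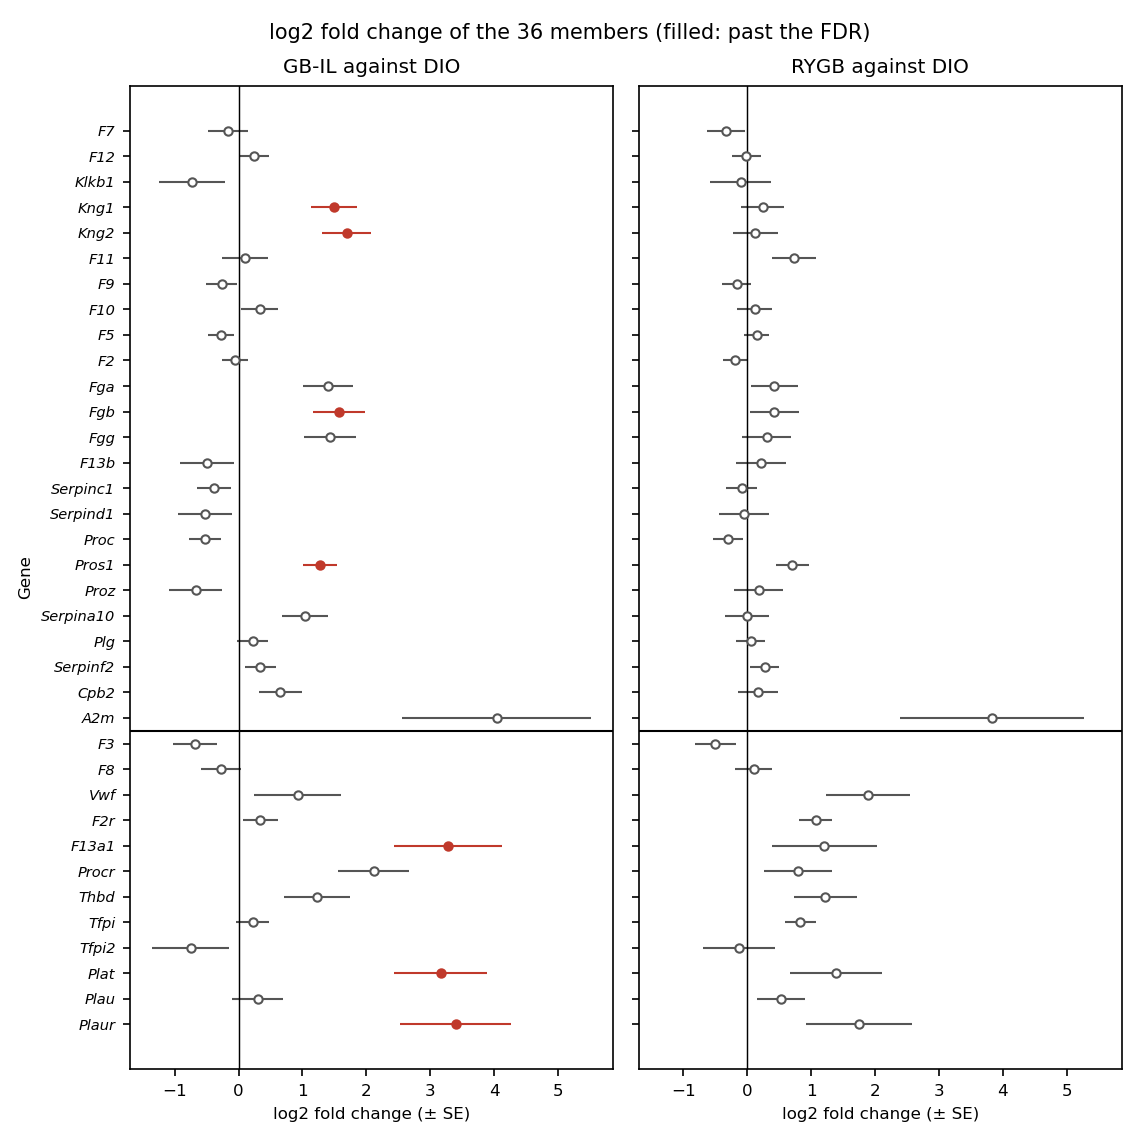
log2 fold change of each of the 36 genes (points) with its SE (bars) in GB-IL against DIO, left, and RYGB against DIO, right. Filled points passed the FDR, and the line separates genes made by hepatocytes, above, from those of other cells, below. The 7 filled points are all in GB-IL and all to the right of 0, and none is in RYGB.

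Read liver by liver, the hepatocyte-made genes divided the GB-IL group. GB-IL livers 1 and 2 both had the same 10 of the 24 below every DIO liver, namely F7, Klkb1, F11, F9, F5, F13b, Serpinc1, Serpind1, Proc and Proz, and both had F12, Kng1, Kng2, Fga, Fgb, Fgg and Pros1 above every DIO liver. These are large shares, at 41.7% below in each, but 37.5% and 35.9% of all genes tested were below the DIO range in the same livers. Above the DIO range were 33.3% and 41.7% of the 24, against 36.1% and 35.4% of all genes. GB-IL liver 3 had 18 of the 24 above the DIO range and 0 below, against 25.6% and 18.3% of all genes, and its list included Plg, Cpb2, F2 and Serpind1. GB-IL liver 4 had 1 above and 9 below, or 4.17% and 37.5%, against 15.6% and 14.4% of all genes. The 6 genes above the DIO range in GB-IL livers 1, 2 and 3 alike were Kng1, Kng2, Fga, Fgb, Fgg and Pros1. The share of all genes tested that left the DIO range jointly in livers 1 and 2, or in livers 1, 2 and 3, was not worked out. Among genes of other cells, F13a1, Procr, Plat and Plaur were above it in all 4 livers.

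In RYGB, livers 2, 3 and 4 had 8, 11 and 10 of the 24 hepatocyte-made genes above the DIO range (17.1% to 18.6% of all genes in those livers), and shared Fga, Fgb, Fgg, Pros1, Plg and Serpinf2. The share of all genes above the range jointly in these livers was not worked out. RYGB liver 1 had 3 above and 3 below, or 12.5% each way, against 18.2% and 16.1% of all genes. RYGB liver 5 had 6 above and 8 below, and 10 of the 12 genes of other cells above, where 27.3% of all genes were above and 26.1% below, and without this liver the genes of other cells had a median of 0.54 in RYGB on the log2 scale in place of 0.95.

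**Figure D5:**
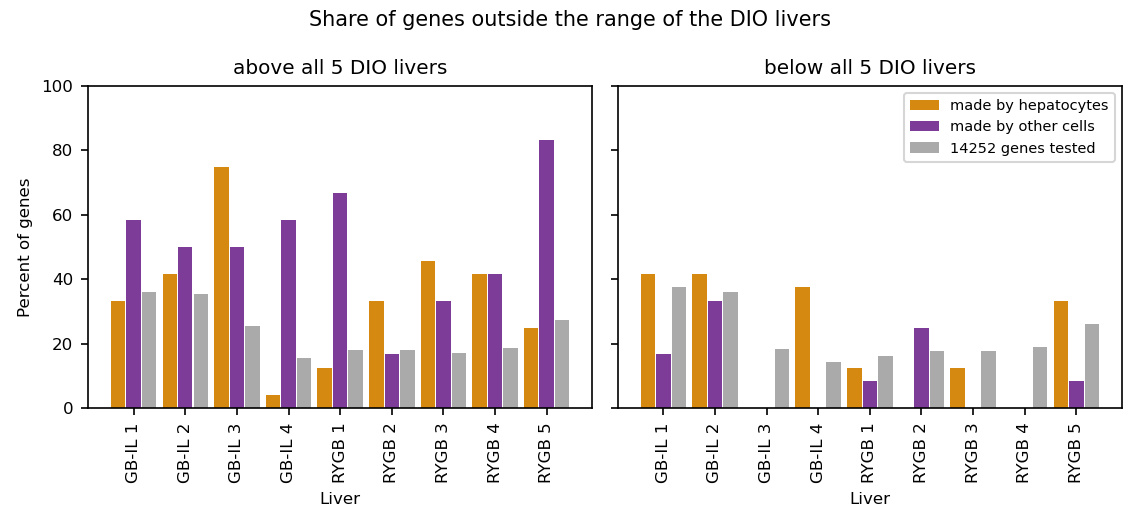
Percent of genes (vertical axis) above, left, or below, right, all 5 DIO livers in each operated liver, for the 24 genes made by hepatocytes, the 12 made by other cells and all 14252 genes tested. GB-IL liver 3 has 75.0% of the hepatocyte-made genes above and none below, while GB-IL livers 1 and 2 have 41.7% below, close to the share of all genes in the same livers.

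Compared directly, GB-IL and RYGB differed in 0 of the 36 genes at the FDR (0% of all genes tested), with 9 higher and 2 lower in GB-IL at an unadjusted p below 0.05 (15.3% and 6.77%). Kng2 and Kng1 had the smallest p, with log2 differences of 1.56 (SE 0.379, adjusted p = 0.0839) and 1.25 (SE 0.356, adjusted p = 0.102), and DESeq2 called both (4.59% of all genes higher). The lower genes were F2r, by -0.73 (SE 0.279, adjusted p = 0.164), and Tfpi, by -0.61 (SE 0.262, adjusted p = 0.197). Without GB-IL liver 4, 10 of the 36 were called, 9 higher and F13b lower, where 13.4% of all genes were called higher and 8.09% lower.

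Other genes of the pathway were followed with a list of 25, of which 21 could be tested. In GB-IL against DIO 0 were higher and 1 was lower at the FDR (3.15% and 0.112% of all genes tested). In RYGB 0 were called (0% of all genes tested). The gene that fell was Serpine2, which codes for protease nexin 1, an inhibitor of thrombin and of the plasminogen activators. It was at 10.3, 11.4, 6.11, 35.1 and 16.9 CPM in DIO and at 3.15, 1.92, 5.51 and 5.64 in GB-IL, all 4 below every DIO liver (log2 fold change -1.96, SE 0.474, adjusted p = 0.0383). Its 5 RYGB livers were at 7.22 to 17.3 CPM. Of all genes tested, 1.51% lay below every DIO liver in all 4 GB-IL livers. None of the 6 vitamin K cycle and cargo receptor genes, which serve the maturation and secretion of the clotting factors, was called in GB-IL or RYGB.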

How the data were processed

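The authors sequenced 1 library per liver, used TopHat 2 (mm10) for alignment and HTSeq for counting, and deposited raw counts per gene. Amplification with the Ovation kit is described in the study's methods, whereas the labels name 2 kits. The sources used here do not give tool versions, annotation or strand setting. Analysis was done in R 4.3.3 by edgeR 4.0.16 (filterByExpr by group, TMM, quasi-likelihood fit of all 14 livers, Benjamini-Hochberg over 14252 genes), limma 3.58.1 and DESeq2 1.42.0, tested on simulated data first. Positions and exon lengths came from GENCODE M21, to which 24701 identifiers matched, and promoters from RefSeq. The 36 genes and all lists, motifs and rules were chosen with earlier results of these data known. All 36 genes were named, with the value in every liver for those past the FDR, those without overlap against DIO, the smallest p of each role in each comparison with DIO, and the fibrinogen chains. Of the other pathway genes, those past the FDR were named, and 1 gene of that list is not reported here. Alternatives were other scalings and tools, no filter, fits of the compared groups alone, a replicate block and each liver left out.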

Additional observations from a re-analysis of the deposited data

Results flagged for a closer look

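Single livers far from the rest of their group were sought by Dixon's test, in which the gap to the nearest liver is divided by the range of the group. Of 108 groups of values 10 passed the critical value, all with the highest liver. The value is set to flag 1 in 20 groups of independent, normally distributed values. CPM of related genes in the same livers need not be so distributed, so the count is not set against chance. RYGB liver 5 was far above the other RYGB livers for Vwf (110.3 CPM, others at most 24.2), F13a1 (2.70 CPM, others at most 0.547) and A2m (22.5 CPM, others at most 1.09). GB-IL liver 3 was far above the other GB-IL livers for Procr (8.19 CPM, others at most 2.43), Cpb2 (866 CPM, others at most 283) and A2m (22.4 CPM, others at most 0.578). GB-IL liver 1 was so for Plat (6.62 CPM, others at most 0.922). DIO liver 1 passed by proportionally smaller gaps, for Fgb (4967 CPM, other DIO livers at most 3658), Fgg (4309 CPM, others at most 3108) and Serpinc1 (2065 CPM, others at most 1820).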

How the results depend on the processing

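In GB-IL against DIO, the 7 calls became 8 with RLE or upper quartile scaling, 5 with library sizes from hepatocyte markers, 9 with DESeq2, 7 with voom and sample quality weights, 6 without a filter and 0 with only the 2 groups compared. All genes called higher numbered 449 in the main fit, 453 with RLE, 520 with upper quartile scaling, 334 with hepatocyte markers and 1107 with DESeq2. They numbered 510 with voom, 510 without a filter and 0 with only the 2 groups compared. With 1 liver left out, member calls ranged from 0 to 12 and all genes called higher from 0 to 2228. In RYGB against DIO the 0 calls became 1 with DESeq2, 1 with only the 2 groups compared and 3 with voom. Of all genes, 64, 17 and 867 were called higher there. With each liver left out the member calls stayed at 0. In GB-IL against RYGB the 0 calls became 2 with DESeq2 and ranged from 0 to 10 with 1 liver left out. The median of the hepatocyte-made genes in GB-IL against DIO ranged from -0.05 without GB-IL liver 3 to 0.39, and that of the other genes from 0.51 to 0.77. The corresponding ranges were 0.11 to 0.17 and 0.54 to 1.06 in RYGB against DIO, and -0.16 to 0.31 and -0.43 to -0.04 in GB-IL against RYGB. F13a1 in RYGB ranged from -0.083 without RYGB liver 5 to 1.504 without DIO liver 1. Of 481 values for single genes under these alternatives, 378 kept direction and side of the threshold, 86 lost a call, 16 gained a call and 1 changed direction. Only values of the 7 genes called in the main fit could lose a call. The 378 include many values of genes not called in the main fit, so they do not measure how stable the calls were. The cause of these moves was not tested.

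Livers with the same number did not deviate together from their group means in GB-IL and DIO (correlations from -0.381 to 0.00807) or in RYGB and DIO (-0.228 to 0.0209). In GB-IL and RYGB the correlations were from 0.00778 to 0.381, with 2 of 4 above 0.1. Only 1 of these 4 correlated best with its own number. With the replicate block 0 members were called in each of the 3 comparisons. Of all genes tested, 1 was called in GB-IL against DIO and 0 in the other comparisons.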
